A study of Mus musculus with 9 samples.

Results

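The suppressors of cytokine signaling (SOCS) form a family of intracellular inhibitors, and the 8 genes Cish, Socs1, Socs2, Socs3, Socs4, Socs5, Socs6 and Socs7 were followed in mouse bone marrow-derived dendritic cells (BMDCs). They were found by gene symbol among 57238 entries of the gene table, and each symbol matched 1 entry. The family was selected on the values of the same libraries, namely its differences between groups, so the levels and fold changes of its members are given as a description, and calls of members are counted without p-values and support nothing.

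SOCS proteins share a central SH2 domain, which binds phosphorylated tyrosines on cytokine receptors and Janus kinases (JAKs), and a C-terminal SOCS box, which joins Elongin B, Elongin C and Cul5 into a ubiquitin ligase. SOCS1 and SOCS3 also carry a short kinase inhibitory region that blocks JAKs directly. CISH and SOCS1 to SOCS3 are the classical feedback members, as their genes are induced by the STAT factors that cytokines activate, whereas SOCS4 to SOCS7 are better known for acting on receptor tyrosine kinases. In dendritic cells, SOCS1 and SOCS3 are known to restrain responses to interferons, interleukins and microbial products, and CISH to restrain signaling by granulocyte-macrophage colony-stimulating factor (GM-CSF).

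RNA sequencing was performed on 3 libraries from each of 3 groups of wildtype C57BL/6 BMDCs. All cells were grown from bone marrow with 20 ng/ml GM-CSF over 6 days, so every group, controls included, had received this STAT5-activating cytokine. CTR cells were left without exosomes, NE cells were given exosomes of NIH-3T3 fibroblasts (normal cell-derived exosomes), and TDE cells were given exosomes of tumor cells, in both cases for 24 hours. Exosomes are small vesicles that cells release, the labels do not name the tumor line, and they do not say whether libraries came from separate cultures, so p-values measure the spread between these libraries, which may be technical.

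The family is spread over 7 chromosomes (GRCm38, GENCODE annotation). Cish lies at chr9:107296026-107302784 on the plus strand, Socs1 at chr16:10782240-10785536 on the minus strand, and Socs2 at chr10:95385362-95417180 on the minus strand. Socs3 (chr11:117966079-117970047, minus strand) and Socs7 (chr11:97362551-97398542, plus strand) are on the same chromosome. Socs4 lies at chr14:47276931-47296102 and Socs5 at chr17:87107679-87137839, both on the plus strand. Values are for whole genes, that is for all annotated exons together. Exons of Cish overlap a processed pseudogene and an antisense gene on the opposite strand, each over at most 479 bases. Reads from the shared bases cannot be assigned without knowing whether counting used strand. Exons of the other 7 members overlap those of no other annotated gene.

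The 3 members with the highest fold changes after TDE treatment, Socs3, Socs1 and Cish, are shown with their start site-proximal sequence because such genes are classically bound there by STAT factors. Socs4, whose level was similar in TDE and NE cells, is shown as the only other member with a promoter window at hand. Socs2, Socs5, Socs6 and Socs7 were not searched for motifs. Sequences are from RefSeq (GRCm38.p6), 5′ to 3′ on the strand of the gene, and cover chr11:117969367-117969566 for Socs3, chr16:10785537-10785736 for Socs1, chr9:107296489-107296688 for Cish and chr14:47276720-47276919 for Socs4. Each has 200 bases and ends at the base before the RefSeq start, except that of Cish, which ends 30 bases into the transcript. Capitals mark the STAT-type motif TTCNNNGAA and the interferon-response-type motif, which is GAAA followed after any 2 bases by GAAA, both searched on both strands.
Socs3: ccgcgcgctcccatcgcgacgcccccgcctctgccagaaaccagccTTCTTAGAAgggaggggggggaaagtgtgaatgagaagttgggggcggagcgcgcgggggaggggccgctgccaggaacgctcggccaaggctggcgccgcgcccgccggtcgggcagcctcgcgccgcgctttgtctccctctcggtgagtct
Socs1: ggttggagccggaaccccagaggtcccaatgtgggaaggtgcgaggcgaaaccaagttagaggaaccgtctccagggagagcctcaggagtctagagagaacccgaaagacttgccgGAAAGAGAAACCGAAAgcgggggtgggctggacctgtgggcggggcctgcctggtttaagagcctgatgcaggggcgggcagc
Cish: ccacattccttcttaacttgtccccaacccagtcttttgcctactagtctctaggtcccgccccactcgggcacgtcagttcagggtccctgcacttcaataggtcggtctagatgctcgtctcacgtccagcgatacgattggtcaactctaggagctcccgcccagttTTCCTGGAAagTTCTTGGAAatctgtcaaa
Socs4: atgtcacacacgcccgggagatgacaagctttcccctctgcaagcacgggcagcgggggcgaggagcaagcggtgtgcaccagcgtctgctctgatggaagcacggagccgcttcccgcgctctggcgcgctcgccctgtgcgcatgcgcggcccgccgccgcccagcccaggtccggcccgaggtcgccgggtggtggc

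Cish held a pair of STAT-type matches, TTCCTGGAA from base 1 and TTCTTGGAA from base 12 of the transcript. At least 2 such matches were found in 0.457% of 32851 promoter windows of the same length (250 bases before to 50 after the start), and at least 1 in 8.30%. Socs3 held 1 match, TTCTTAGAA, 154 bases before its start. Socs1 held none of these, but a pair of interferon-response-type matches that overlap each other, GAAAGAGAAA and GAAACCGAAA, 83 and 77 bases before its start. At least 1 such match was found in 3.44% of windows and at least 2 in 0.225%. Socs4 held neither motif in its window. A match is a run of letters and was not measured as a binding site here.

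The libraries held 17469782 to 21092943 estimated reads, so that 3 reads, the limit that a count of 0 allows, stood for 0.136 to 0.190 CPM (reads relative to the TMM-scaled library total). These floors cover counting error only, whereas the intervals of fold changes also hold the fitted spread between libraries. The first CTR library stood apart from the rest: its mean correlation over genes with the other CTR libraries was 0.870, against 0.977 to 0.990 within NE and TDE. In it, 22.8% of tested genes were at less than 0.5 times the mean of the other CTR libraries and 21.3% at more than 2 times. Values without this library are given where they change a call or a direction. Its summed level of 7 neutrophil markers was 25070 CPM, against 5492 CPM in the lowest CTR library. These markers summed to 5782 to 8570 CPM in NE and 2786 to 3046 CPM in TDE cells, and edgeR called 6 of 7 lower in TDE against CTR (7 without the first CTR library). The 6 dendritic cell markers (Itgax, Cd74, H2-Ab1, Flt3, Zbtb46 and Ccr7) were detected in every library. They summed to 3191 to 11180 CPM in CTR, with the highest sum in the first library, 3061 to 3917 CPM in NE and 1570 to 1665 CPM in TDE cells. Of these markers, 3 were called lower in TDE against CTR (5 without the first CTR library). The 7 macrophage markers summed to 3227 to 3493 CPM in CTR, 3008 to 3444 CPM in NE and 4601 to 4942 CPM in TDE cells. Most of these markers did not share the higher sum, as 1 was called higher and 2 lower in TDE against CTR. Without the first CTR library, 2 were called higher and 4 lower. The median log2 fold change of the list was -0.38 against CTR and -0.78 against NE. Eosinophil markers (406 to 1325 CPM in CTR, 428 to 489 CPM in NE, 96.1 to 120 CPM in TDE cells) and mast cell and basophil markers (58.3 to 218.5 CPM in CTR, 66.0 to 94.5 CPM in NE, 10.8 to 11.4 CPM in TDE cells, with Mcpt4 at 0 in all libraries) were also lower in TDE cells, and the first CTR library held both CTR maxima. Their part in the values of the SOCS genes was not tested, and in such bulk RNA fewer cells of a type and less RNA per cell cannot be told apart. The 3 B cell markers summed to 20.6 to 34.0 CPM in CTR, with the highest sum in the first library, 18.2 to 23.7 CPM in NE and 10.8 to 11.0 CPM in TDE cells. All 3 were called lower in TDE against CTR. The 4 T cell markers summed to 3.43 to 5.51 CPM in CTR, 4.12 to 4.51 CPM in NE and 0.209 to 0.388 CPM in TDE cells, and Cd8a, the 1 tested, was called lower. Cd8a passed the filter on low counts only through CTR and NE libraries. Its lower level in TDE cells was thus fixed by the filter, and its call supports nothing. NK cell, fibroblast and epithelial markers summed to at most 4.38 CPM in any library.

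Socs3, the inhibitor of signaling through the gp130 receptor of interleukin (IL)-6, was by far the most different family member between groups. Its level was 18.5, 22.8 and 21.5 CPM in the CTR libraries, 21.7, 18.3 and 17.7 CPM in the NE libraries, and 385, 379 and 371 CPM in the TDE libraries. The lowest TDE library was 16.3 times the highest of the other 6, and CTR and NE libraries overlapped. The fitted log2 fold change of Socs3 was 4.17 ± 0.154 (SE) against CTR, an 18.1-fold higher level, and 4.30 ± 0.155 against NE, a 19.7-fold higher level. By log2 fold change against CTR, Socs3 ranked 33 of 15028 tested genes from the highest.

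Socs1, which inhibits the JAKs of the interferon receptors most potently, was the family member with the lowest read numbers. It had 2.54, 3.12 and 2.72 CPM in CTR, 2.39, 2.17 and 3.23 CPM in NE, and 13.7, 12.0 and 11.6 CPM in TDE libraries. All TDE libraries lay above all others, the lowest by 3.59 times, and 40 reads, in CTR replicate 1 and NE replicate 2, was the lowest number for any member. The log2 fold change was 2.15 ± 0.203 against CTR (4.44-fold) and 2.26 ± 0.204 against NE (4.77-fold).

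Cish, the feedback inhibitor induced by STAT5, had 5.77, 5.55 and 4.79 CPM in CTR, 4.99, 4.23 and 4.48 CPM in NE, and 19.8, 16.5 and 18.2 CPM in TDE libraries. The TDE libraries again did not overlap the others, with the lowest at 2.87 times the highest CTR library. The log2 fold change was 1.76 ± 0.152 against CTR (3.38-fold) and 1.99 ± 0.154 against NE (3.98-fold). For these 3 genes the first CTR library made little difference, and without it the log2 fold changes against CTR were 4.08 for Socs3, 2.08 for Socs1 and 1.80 for Cish.

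**Figure D1:**
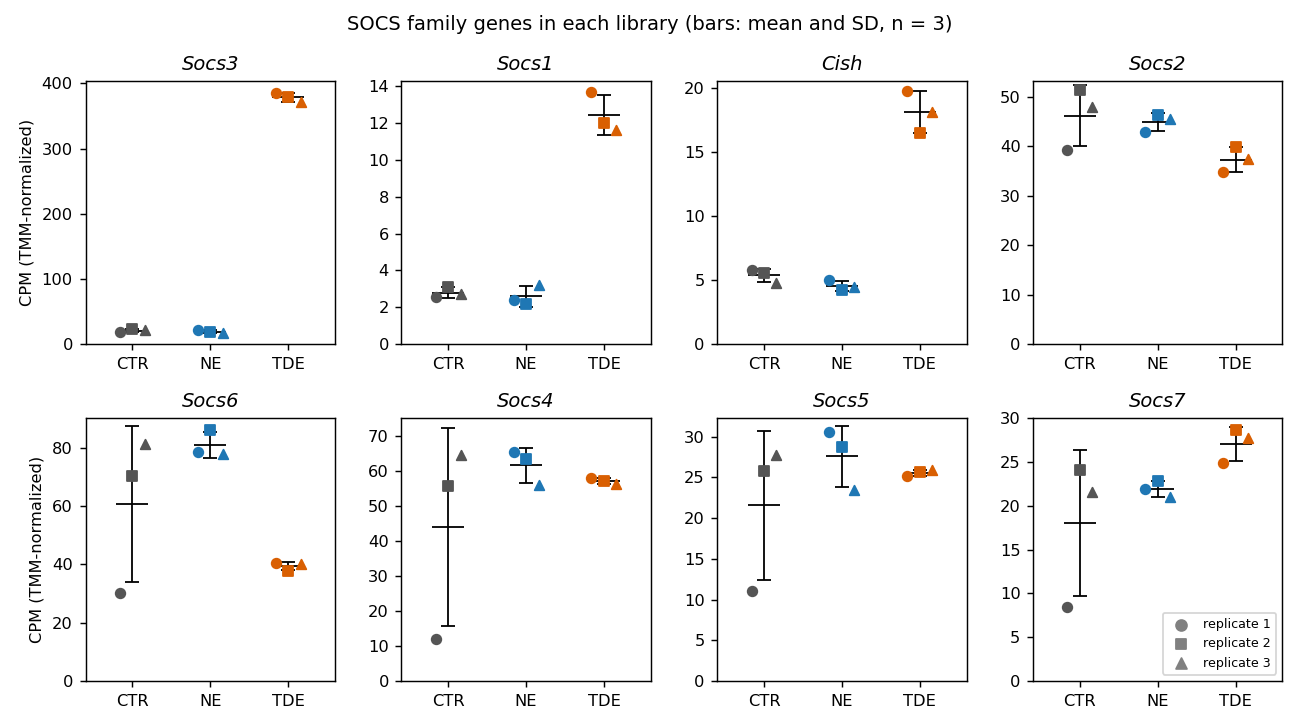
Level of the 8 SOCS family genes in each library, in TMM-normalized CPM on linear axes that start at 0, with a different scale for each gene. Points are libraries, marked by replicate number, and horizontal lines with bars are the mean and SD of 3 libraries. Socs3, Socs1 and Cish were highest in the 3 TDE libraries, Socs6 and Socs2 were lower in TDE than in NE libraries, and the first CTR library was far below the other CTR libraries for Socs4, Socs5, Socs6 and Socs7.

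Socs6 and Socs2 were the members with lower levels in TDE cells. Socs6 (chr18:88665224-88927481, minus strand), which binds the receptor tyrosine kinase KIT and components of insulin signaling, had 30.3, 70.5 and 81.3 CPM in CTR, 78.8, 86.3 and 78.0 CPM in NE, and 40.6, 37.8 and 40.1 CPM in TDE libraries. All TDE libraries were below all NE libraries and below CTR replicates 2 and 3, but above the first CTR library. The log2 fold change against NE was -1.04 ± 0.312, a 2.05-fold lower level, with an interval of -1.75 to -0.32. Socs6 was not called lower there by edgeR in the fit of all libraries, but was in 4 of 16 alternatives, namely with DESeq2, in the fit of the 6 libraries of the pair, and without CTR replicate 1 or CTR replicate 3. Against CTR it was -0.62 ± 0.310, and without the first CTR library -0.95 ± 0.0897, a 1.93-fold lower level.

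Socs2, the inhibitor of growth hormone receptor signaling and a gene expressed in dendritic cells grown with GM-CSF, had 39.3, 51.3 and 47.8 CPM in CTR, 42.9, 46.3 and 45.4 CPM in NE, and 34.7, 39.8 and 37.4 CPM in TDE libraries. The highest TDE library was just above the lowest CTR library and below every NE library. The log2 fold change of Socs2 was -0.31 ± 0.135 against CTR and -0.27 ± 0.135 against NE, and -0.42 ± 0.0865 against CTR without the first library. Cish and Socs2 encode related proteins, and their fold changes had opposite signs. The ratio of Cish to Socs2 per length was 0.149 to 0.218 in CTR, 0.136 to 0.173 in NE and 0.619 to 0.849 in TDE libraries.

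The values of Socs4, Socs5 and Socs7 in the comparison with CTR rested largely on the first CTR library. Socs4, which acts on the epidermal growth factor receptor, had 11.9, 55.7 and 64.4 CPM in CTR, 65.4, 63.4 and 55.9 CPM in NE, and 57.8, 56.9 and 56.2 CPM in TDE libraries. In the first CTR library it was at 0.197 of the mean of the other 2. Its log2 fold change against CTR was 0.37 ± 0.490, and -0.09 ± 0.0962 without that library, so that the direction rested on 1 library.

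Socs5, a relative of Socs4 also known to bind the IL-4 receptor, had 11.1, 25.8 and 27.8 CPM in CTR, 30.6, 28.8 and 23.4 CPM in NE, and 25.2, 25.6 and 26.0 CPM in TDE libraries. All groups overlapped. Its log2 fold change against CTR was 0.24 ± 0.304, and -0.08 ± 0.115 without the first CTR library, again with a turn of direction. Against NE, the log2 fold changes were -0.11 for Socs4, with an interval of -1.23 to 1.01, and -0.11 for Socs5, with an interval of -0.80 to 0.59.

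Socs7, which shuttles between nucleus and cytoplasm and binds the adaptor NCK, had 8.49, 24.1 and 21.5 CPM in CTR, 21.9, 22.8 and 20.98 CPM in NE, and 24.9, 28.7 and 27.7 CPM in TDE libraries. The TDE libraries were above all others, the lowest by 1.04 times. Its log2 fold change was 0.59 ± 0.327 against CTR, 0.24 ± 0.0960 without the first CTR library, and 0.31 ± 0.325 against NE. Against NE it was called higher in 2 of 16 alternatives, without the first CTR library and in the fit of the pair.

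With an adjusted p under 0.05 in edgeR as the call, 3 of 8 members (Socs3, Socs1 and Cish) were called in TDE against CTR and 3 in TDE against NE, all with higher levels in TDE cells, and none with lower levels. Among all tested genes, 16.9% were called in TDE against CTR, 7.57% higher and 9.34% lower. In TDE against NE, 13.9% were called, 6.73% higher and 7.21% lower. Without the first CTR library the spread shared by all groups was smaller, and 5 members were called in TDE against CTR (Socs2 and Socs6 added, both lower), when 34.4% of all tested genes were called. In TDE against NE, 6 members were then called (Socs2 and Socs6 lower, Socs7 higher), when 40.7% of all tested genes were. The groups did not overlap for 4 members in TDE against CTR, beside 44.0% of all tested genes, and for 6 members in TDE against NE, beside 54.5%. Because the family was chosen by these differences and both comparisons share the TDE libraries, nothing is read from these counts. Over the 8 members the median log2 fold change was 0.48 against CTR and 0.10 against NE, beside -0.06 and -0.02 over all tested genes, and the first of these was 0.08 without the first CTR library.

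No difference between NE and CTR cells was detected for any SOCS gene. No member was called by edgeR in NE against CTR, beside 0.00% of all tested genes, none passed at an unadjusted p under 0.05, and DESeq2 called none either. Over all tested genes edgeR gave 487 at an unadjusted p under 0.05 and DESeq2 called 6. The 2 groups overlapped for every member, and 7.71% of all tested genes did not overlap. Log2 fold changes ranged from -0.23 for Cish, with an interval of -0.58 to 0.11, to 0.48 for Socs4, with an interval of -0.64 to 1.61, and without the first CTR library the highest was 0.09, for Socs6. The interval was narrowest for Socs2, from -0.35 to 0.27, in the fit of all libraries.

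**Figure D2:**
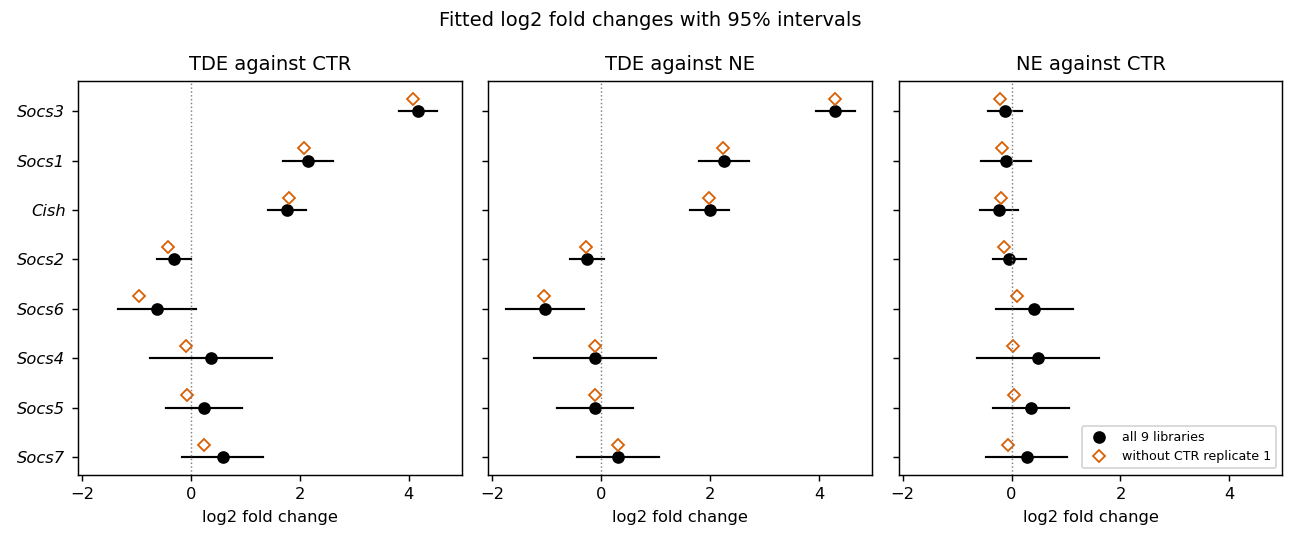
Fitted log2 fold changes of the 8 SOCS family genes in the 3 comparisons. Black points and lines are the estimate and its 95% interval from all 9 libraries, and open diamonds are the estimate without the first CTR library. Socs3 lay at 4.17 and 4.30 in the comparisons of TDE cells, and the diamonds moved most for Socs4, Socs5, Socs6 and Socs7 in the comparisons with CTR.

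Per length of transcript, the make-up of the family was different in TDE cells. Levels per length are given as RPKM, from the normalized CPM and the length in the gene table. In NE cells the order was Socs6 with 27.7 ± 1.56 RPKM (SD, n = 3), Socs2 with 10.6 ± 0.415, Socs4 with 8.96 ± 0.727, Socs3 with 7.53 ± 0.849, Socs5 with 5.94 ± 0.801, Socs7 with 3.12 ± 0.131, Cish with 1.60 ± 0.136 and Socs1 with 0.893 ± 0.193 RPKM. Only the neighbours Socs4 and Socs3 overlapped in this order. In CTR cells the order of the means was the same except that Socs3, with 8.21 ± 0.871 RPKM, preceded Socs4, with 6.39 ± 4.09 RPKM. Their ranges overlapped, as Socs4 had 1.72, 8.10 and 9.36 RPKM and Socs3 7.25, 8.95 and 8.42 RPKM in the CTR libraries, so that the order of these 2 means rested on the first CTR library. Other neighbours in CTR overlapped only through that library, namely Socs6 and Socs2, Socs4 and Socs5, Socs5 and Socs7, and Socs7 and Cish.

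In TDE cells Socs3 led with 148 ± 2.66 RPKM, followed by Socs6 with 13.5 ± 0.517, Socs2 with 8.79 ± 0.602, Socs4 with 8.28 ± 0.120, Cish with 6.38 ± 0.569, Socs5 with 5.51 ± 0.0805, Socs1 with 4.28 ± 0.381 and Socs7 with 3.87 ± 0.276 RPKM. The neighbours Socs2 and Socs4 overlapped, as did Socs1 and Socs7. Socs3 was thus above Socs6 in every TDE library, by 10.6 to 11.5 times, whereas it was at 0.242 to 0.699 of Socs6 in the CTR and NE libraries. In CTR cells, 44.5% of tested genes had a higher mean RPKM than Socs3, and in TDE cells 3.31% had.

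The summed RPKM of the 8 genes was 35.1, 65.3 and 68.6 in CTR, 67.4, 68.5 and 63.2 in NE, and 202, 199 and 196 in TDE libraries. The share of Socs3 in this sum was 15.6% ± 4.48 (SD, n = 3) in CTR (20.7% in the first library, 13.7% and 12.3% in the others), 11.4% ± 1.13 in NE and 74.6% ± 0.311 in TDE cells. That of Socs6 was 35.7% ± 5.63 in CTR (29.5% in the first library, 37.0% and 40.6% in the others), 41.8% ± 1.59 in NE and 6.80% ± 0.255 in TDE cells. Both members with a kinase inhibitory region had higher levels in TDE cells, but unequally: Socs3 was 8.32 to 8.99 times Socs1 per length in CTR, 6.24 to 10.4 times in NE and 32.0 to 36.5 times in TDE libraries.

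**Figure D3:**
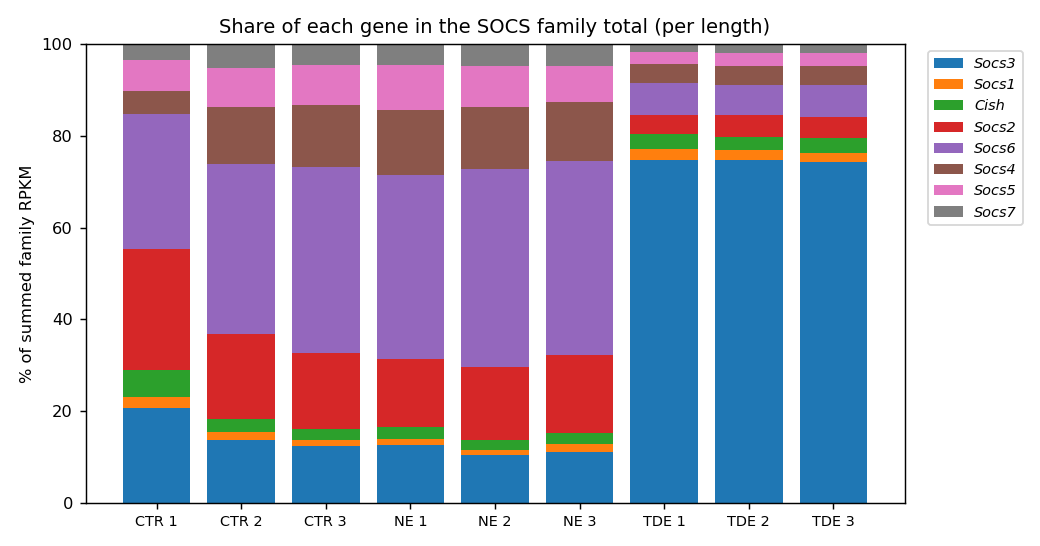
Share of each SOCS family gene in the summed RPKM of the 8 genes, in percent, for each of the 9 libraries (columns stack to 100%). Socs3 made up 74.2% to 74.8% of the sum in the TDE libraries, and Socs6 was the largest share in every CTR and NE library.

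Several cytokines that act through JAKs and STATs were also higher in TDE cells. The lists of pathway genes below were put together with results of these libraries known, p-values are adjusted p-values of edgeR's quasi-likelihood test over all 15028 tested genes, and counts of a list are read beside the shares of all genes given above. Of 24 cytokine ligands, 11 passed the filter on low counts, and 6 of these rose and none fell in TDE against CTR (8 and none without the first CTR library). Il10 and Il12a are among those that rose, but passed the filter only through the TDE libraries. Their direction was thus fixed by the filter, against CTR and against NE, and their calls support nothing. Il6, a ligand of gp130 receptors, had 2.39 ± 1.12 CPM (SD, n = 3) in CTR cells and rose to 11.6 ± 0.677 CPM after TDE treatment (log2 fold change 2.26 ± 0.346, adjusted p = 0.00422 by edgeR). Osm and Lif, which also signal through gp130, rose by 1.06 ± 0.142 (adjusted p = 0.00235) and 1.37 ± 0.336 (adjusted p = 0.0281) on the log2 scale. The call of Lif held in 8 of 16 alternatives and was lost when CTR replicate 2, NE replicate 1 or any 1 TDE library was left out.

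Il10, an anti-inflammatory cytokine acting through STAT3, had 0, 0 and 3 reads in CTR, 0, 2 and 3 reads in NE, and 42, 37 and 53 reads in TDE libraries (adjusted p = 0.00664). Il12a, a subunit of IL-12, had 0, 10 and 9 reads in CTR and 218, 177 and 230 reads in TDE libraries (adjusted p = 0.00225). Il12b, the other subunit, rose from 116 ± 1.29 to 201 ± 12.4 CPM (log2 fold change 0.79 ± 0.110, adjusted p = 0.00280). Csf2, which encodes GM-CSF, had at most 2 reads in any library, Ifnb1 had 1 read in 1 library, and Ifng had 0 reads in every library, which allows up to 3 reads in each. In TDE against NE, 7 ligands rose and none fell.

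Of 36 cytokine receptors, 30 passed the filter, 5 rose and 5 fell in TDE against CTR (6 and 12 without the first CTR library, and 4 to 18 called in all over 16 alternatives). Leaving out a TDE library, or the first or second NE library, gave 5. Of the receptors that fell, 1 had 5, 2 and 4 reads in the TDE libraries and passed the filter only through the others. Its direction was thus fixed by the filter, and its call supports nothing. Csf2ra, the ligand-binding subunit of the GM-CSF receptor, fell from 381 ± 84.6 to 237 ± 3.68 CPM (log2 fold change -0.68 ± 0.174, adjusted p = 0.0324). Csf2rb encodes the common subunit, and its near-identical copy Csf2rb2 encodes a subunit specific to the IL-3 receptor. Reads can be shared between these copies. Csf2rb2 fell by 0.49 on the log2 scale (adjusted p = 0.0396), and for Csf2rb the value was -0.14 ± 0.146 (adjusted p = 0.496). The calls of Csf2ra and Csf2rb2 held in 4 and 5 of 16 alternatives, that without CTR replicate 1 among them, and were lost when CTR replicate 2 or 3, NE replicate 1 or 2, or any 1 TDE library was left out, as well as NE replicate 3 for Csf2ra.

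The gp130 gene Il6st had 118 ± 65.0 CPM in CTR and 98.4 ± 1.12 CPM in TDE cells (adjusted p = 0.668). It had 45.6 CPM in the first CTR library and 136 and 172 CPM in the others, and without the first it was called lower, with a log2 fold change of -0.65 against CTR (adjusted p = 0.0215 by edgeR) and -0.65 against NE (adjusted p = 0.0120). Its partner Il6ra had 149 ± 47.5 and 178 ± 5.28 CPM (adjusted p = 0.453). Il10ra, with 317 ± 25.3 and 329 ± 12.4 CPM, did not pass either (adjusted p = 0.762). The type I interferon receptor subunit Ifnar2 rose from 151 ± 1.90 to 297 ± 9.18 CPM (adjusted p = 0.00103), whereas Ifnar1 differed by 0.43 ± 0.167 on the log2 scale (adjusted p = 0.111). Of the interferon-γ receptor, Ifngr2 rose by 0.53 ± 0.130 (adjusted p = 0.0278) and Ifngr1 had -0.31 ± 0.118 (adjusted p = 0.106), which without the first CTR library was -0.36 and was called lower (adjusted p = 0.00373). Beyond these, the leptin receptor Lepr rose by 1.55 ± 0.244 (adjusted p = 0.00459) and Il13ra1, of the IL-13 receptor, by 0.78 ± 0.206 (adjusted p = 0.0360). The calls of Ifngr2 and Il13ra1 held in 7 and 5 of 16 alternatives and were lost without NE replicate 1 or 2 or any 1 TDE library, and for Il13ra1 also without CTR replicate 2 or NE replicate 3. Il27ra fell by 2.24 (adjusted p = 0.000485) and Il7r fell by 1.45 (adjusted p = 0.00594).

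Among the kinases and factors between receptors and the nucleus, Jak3 and Stat5a were called. Of 4 Janus kinases, Jak3, which serves receptors with the common γ chain, rose from 80.1 ± 3.85 to 130 ± 10.3 CPM (log2 fold change 0.70 ± 0.129, adjusted p = 0.00854 by edgeR). Jak1, Jak2 and Tyk2 had log2 fold changes of 0.39, 0.53 and -0.03 and did not pass, and without the first CTR library Jak2 was called too (0.28, adjusted p = 0.0183). Among 6 STAT factors, Stat5a rose from 29.5 ± 5.32 to 53.4 ± 1.74 CPM (0.85 ± 0.154, adjusted p = 0.00790). It was not called with library totals, and Stat5b was called beside it without the first CTR library (0.43, adjusted p = 0.00602). Stat3 had 216 ± 62.3 CPM in CTR and 297 ± 2.21 CPM in TDE cells (0.46 ± 0.215, adjusted p = 0.165). Stat2, Stat4, Stat5b and Stat6 had log2 fold changes of -0.23, 0.03, 0.76 and 0.12, and that of Stat6 was -0.07 without the first CTR library.

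Of 11 other inhibitors of the pathway, 1 passed the test in TDE against CTR (5 without the first CTR library and 3 with DESeq2). This was Ptpn1, a tyrosine phosphatase that acts on JAK2 and TYK2, which rose from 301 ± 45.4 to 826 ± 17.3 CPM (log2 fold change 1.46 ± 0.157, adjusted p = 0.000846). The other 10, among them the phosphatases Ptpn2, Ptpn6 and Ptpn11 and the PIAS genes, did not pass.

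Genes known to be induced by STAT factors were followed in 1 list for each factor, and some genes, such as Pim1 and Il4ra, stand in more than 1 list. Of 15 STAT3 targets, 9 rose and none fell in TDE against CTR, with a median log2 fold change of 0.69 beside -0.06 over all tested genes. The count was 12 without the first CTR library, 5 without TDE replicate 1 or 3, and 3 in a fit of the 6 libraries of the pair. Saa3, an acute phase protein, had 587 ± 665 CPM in CTR and 9405 ± 258 CPM in TDE cells (log2 fold change 4.003, adjusted p = 0.0110 by edgeR, and 5.52 without the first CTR library), a call that was lost with DESeq2 and in the fit of the pair. Vegfa, an angiogenic growth factor, rose by 1.62 ± 0.326 (adjusted p = 0.0123), the kinase gene Pim1 by 1.59 ± 0.157 (adjusted p = 0.000561) and the transcription factor gene Nfil3 by 0.98 ± 0.149 (adjusted p = 0.00419).

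Of 9 STAT5 targets, 3 rose and 2 fell (4 and 3 without the first CTR library). Pim2, a survival kinase, rose from 5.67 ± 1.31 to 29.1 ± 2.86 CPM (log2 fold change 2.36 ± 0.212, adjusted p = 0.000376), and Pim1 and Osm, given above under other lists, are the other 2 that rose. The cell cycle gene Ccnd1 fell from 4.59 ± 0.489 to 1.69 ± 0.572 CPM (adjusted p = 0.00731). The median of the list was 0.17.

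Of 13 STAT6 targets, 2 rose and 8 fell (2 and 10 without the first CTR library), with a median log2 fold change of -1.81. Over leave-one-out fits the count called in all was lowest, at 5, without the first or the second TDE library. Mgl2, a lectin gene, fell from 20.8 ± 5.28 to 1.21 ± 0.187 CPM (log2 fold change -4.10 ± 0.239, adjusted p = 7.0e-05 by edgeR), and the lipoxygenase gene Alox15 from 14.1 ± 4.70 to 2.07 ± 0.246 CPM (adjusted p = 0.000788). The chemokine gene Ccl24 had 91, 22 and 19 reads in CTR and 1, 2 and 3 reads in TDE libraries (adjusted p = 0.0120), and Retnla fell by 3.73 on the log2 scale (adjusted p = 0.0276) with an SD in CTR of 5.05 around a mean of 4.65 CPM. Without the first CTR library the log2 fold changes were -3.11 for Ccl24 and -2.36 for Retnla, and both calls were lost without TDE replicate 1 or 2, that of Retnla also without TDE replicate 3. Retnla had 6, 4 and 9 reads in the TDE libraries. Ccl24 and Retnla, both among the 8 that fell, passed the filter on low counts only through other libraries. Their lower level in TDE cells was thus fixed by the filter, and their calls support nothing.

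Of 3 tested targets of the aryl hydrocarbon receptor, a known inducer of Socs2, Tiparp rose from 22.0 ± 9.73 to 108 ± 8.96 CPM (adjusted p = 0.00307) and the other 2 did not pass.

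In NE against CTR, edgeR called no gene of any of these lists. Without the first CTR library it called 1, among the STAT6 targets. In TDE against NE, 9 STAT3 targets rose and none fell, 2 STAT6 targets rose and 7 fell, and 3 STAT5 targets rose and 3 fell. These comparisons share the TDE libraries with those above.

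**Figure D4:**
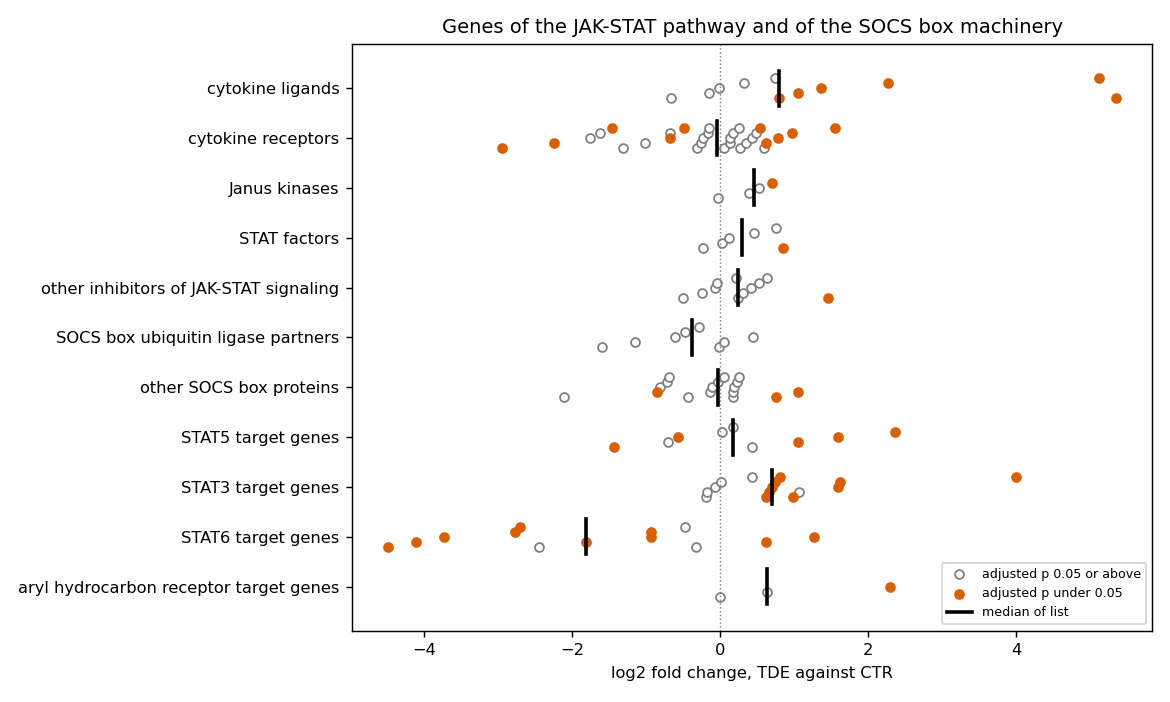
Log2 fold changes in TDE against CTR of the tested genes of 11 lists around the SOCS family. Each point is a gene, filled where its adjusted p was under 0.05 in edgeR's test over all tested genes, points are spread vertically only for legibility, and black lines are list medians. The median was 0.69 for STAT3 targets and -1.81 for STAT6 targets.

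The genes whose profiles over the 9 libraries were most like those of the 3 called members were found by the root-mean-square difference of centred log2(CPM + 0.5) values, among 13311 genes with a mean of at least 1 CPM. For Socs3 these were Fpr3, Gpr31b and Raver2, with differences of 0.100, 0.149 and 0.187 on the log2 scale. Raver2 had 0.168 CPM in CTR and 0.102 CPM in NE, near the floor of 3 reads, and 13.05 CPM in TDE cells. Its mean reached 1 CPM only through the TDE libraries, and its small difference depended on the added 0.5 CPM. The fitted log2 fold change against CTR was 6.20 for Raver2 and 4.17 for Socs3. Fpr3 had 1.70 ± 0.451 CPM in CTR, 1.50 ± 0.0811 CPM in NE and 36.5 ± 2.06 CPM in TDE cells (SD, n = 3). For Socs1 they were Ier3, an immediate early gene, Maged1, and Fpr2, a formyl peptide receptor, with differences of 0.0970, 0.116 and 0.125. Fpr2 had 134 ± 6.51, 128 ± 12.8 and 569 ± 6.72 CPM in the 3 groups. For Cish they were Zc3h12a, which encodes the cytokine mRNA-degrading enzyme Regnase-1, the zinc transporter gene Slc39a4, and Impa2, with differences of 0.101, 0.120 and 0.121. Zc3h12a had 41.5 ± 1.75, 39.3 ± 0.653 and 133 ± 3.78 CPM. These are descriptions over libraries that share their groups.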

How the data were processed

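RNA sequencing covered 9 BMDC libraries, 3 each of CTR, NE and TDE. The authors deposited estimated counts per gene, which need not be whole, with group means that were not used here. The submitters' processing notes name TopHat2 2.1.1, DESeq2 1.24.0 and R 3.3.1. The genome build and the counting tool are not given in the sources used here. Expected counts were rounded and tested with edgeR 4.0.16 (R 4.3.3), in which filterByExpr kept 15028 of 57238 entries, TMM factors scaled the libraries, and a quasi-likelihood model held 1 mean for each group over the 9 libraries. All 8 members passed the filter. P-values were adjusted by Benjamini-Hochberg over all tested genes, with a threshold of 0.05. The SE was the log2 fold change divided by the square root of F, and intervals are 95% intervals. Depth was 17469782 to 21092943 reads per library. The test was checked on simulated data. Groups came from the titles. Replicate numbers were not taken as pairs, because no source ties them to a culture and the correlations of deviations of same-numbered libraries ranged from -0.585 to 0.185.

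The members and lists were chosen with earlier results of these data known. Named were all members, JAKs and, apart from 1 item that is not reported here, STATs, a fixed set of receptors and ligands and, in each list, up to 4 called genes with the largest absolute log2 fold change in TDE against CTR and a mean of at least 1 CPM, and for each called member the 3 genes with the most similar profile. Positions are from GENCODE release 21 for mouse and promoter windows from RefSeq, whose table held 4 of 8 members. DESeq2 1.42.0, RLE factors, unscaled totals, an open and a stricter filter (at least 10 reads throughout), fits restricted to 2 groups, a block by replicate number and the omission of single libraries served as alternatives.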

Additional observations from a re-analysis of the deposited data

How the results depend on the processing

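Socs3, Socs1 and Cish were called in all 16 alternatives against both CTR and NE, which is a description and no support, since the family was selected on these values. Of 384 log2 fold changes of members recomputed, 367 kept their direction and side of the threshold, 10 passed the threshold in addition and 7 changed sign. The sign changes were Socs4 (-0.085) and Socs5 (-0.076) in TDE against CTR without the first CTR library, and in NE against CTR Socs1 (0.0066) and Socs2 (0.063) with library totals, Socs1 (0.012) without the second NE library, Socs2 (0.048) without the second CTR library and Socs7 (-0.060) without the first CTR library. Leaving out each library in turn gave log2 fold changes of -0.085 to 0.75 for Socs4 and -0.076 to 0.47 for Socs5 in TDE against CTR, and of -0.31 to 0.012 for Socs1, -0.15 to 0.048 for Socs2 and -0.060 to 0.55 for Socs7 in NE against CTR. Library totals moved the median of all genes in NE against CTR to 0.12. Leaving out each library gave 3 to 5 members called against CTR, a median of members of 0.082 to 0.74, and 3 to 6 members called against NE, and a fit of the 6 libraries of the pair gave 6 against NE. Genes called in TDE against CTR numbered 2541 in all, 1152 in the fit of the pair, 4018 with DESeq2 and 1103 to 5263 with a library left out. In TDE against NE they numbered 2095, 6072 in the fit of the pair and 970 to 6223 with a library left out. In NE against CTR they numbered 0, 6 with DESeq2 and 0 to 3 with a library left out. With replicate number as a block, 1285 genes were called in TDE against CTR and 1175 in TDE against NE, and the same members were called. The replicate numbers share no stated source. Of 576 counts of list genes, 89 moved by over 1.5 times.

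The number of libraries limits precision: with 3 per group and the first CTR library far from the others, the shared spread was wide for Socs4, Socs5, Socs6 and Socs7, and a difference in these genes that the intervals cover was not detectable. The cause of that library's profile was not tested.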

Other observations

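The ligase through which SOCS proteins work was represented by 8 tested genes. None was called in TDE against CTR by edgeR, while leaving out the second or the third CTR library called 1 and 2, and DESeq2 called 1. Elob and Eloc, which encode Elongin B and Elongin C, had log2 fold changes of -1.60 and -0.48, which were 0.037 and 0.044 without the first CTR library, so that both directions rested on it. Elob had 402 CPM there and 60.3 and 48.5 CPM in the other CTR libraries. The scaffold gene Cul5 had -0.02, and -0.19 without that library.

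Of 27 other genes for proteins with a SOCS box, 17 passed the filter on low counts, 2 rose and 1 fell in TDE against CTR. Wsb1, a WD repeat protein, had 140 ± 40.6 CPM (SD, n = 3) in CTR cells and rose to 291 ± 6.10 CPM after TDE treatment (adjusted p = 0.0128 by edgeR), and had 162 CPM in NE cells. Asb4, an ankyrin repeat protein, rose from 19.3 ± 4.45 to 32.5 ± 1.30 CPM (adjusted p = 0.0312), and Asb13, of the same family, fell from 8.95 ± 0.846 to 4.97 ± 0.890 CPM (adjusted p = 0.0143). The count was 5 without the third CTR library, 1 without the second TDE library and 0 without the first or the third TDE library or with library totals. The calls of Wsb1, Asb4 and Asb13 held in 11, 7 and 11 of 16 alternatives. In TDE against NE, 1 of these genes rose and 1 fell, and 5 were called without the first CTR library.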
